A study of Mus musculus with 6 samples.

Results

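The heme-degrading enzymes heme oxygenase 1 and 2 (Hmox1, Hmox2) and biliverdin reductase A and B (Blvra, Blvrb) were followed in the ventral midbrain of Bach1 knockout and wild-type mice. Members were chosen by gene name, as every probe set that the platform annotation assigned to 1 of these 4 genes. Each gene had exactly 1 such probe set and none was shared with another gene, so the members were 4 of the 22180 genes, or 4 of the 41345 probe sets, that the arrays measured. The 6 Affymetrix arrays held RNA of 3 samples labelled Bach1 KO and 3 labelled wild type, all from male mice of 2 months, with no treatment. The sources used here do not give the structure of the knockout allele, the strain or the number of animals behind each sample, so each p-value measures only how these samples spread, which may be technical.

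Heme oxygenases open the ring of heme and release biliverdin, carbon monoxide and iron, and biliverdin reductases turn biliverdin into bilirubin. Heme oxygenase 1 is the inducible form, whose gene is a classic target that the repressor BACH1 holds down and that the activator NRF2 switches on when BACH1 leaves its binding sites. Heme oxygenase 2 is the constitutive form and the main one in neurons. Biliverdin reductase A acts on the biliverdin isomer that heme oxygenases make, while biliverdin reductase B is a flavin reductase that acts on another isomer, which is prominent in the fetus. The comparison addressed which of these transcripts differed when Bach1 was knocked out, and whether inducible heme oxygenase 1 differed from the other enzymes in its response.

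The sequence before the start site is shown for Hmox2, Blvra and Blvrb, because BACH1 and NRF2 act through short elements in regulatory DNA. RefSeq (GRCm38.p6) windows of 250 bases upstream of a start were held for Hmox2 (3 windows), Blvra (1) and Blvrb (2), and not for Hmox1. Each was searched on both strands for TGACNNNGC, the core of the antioxidant response element, and for TGACTCA, the heptamer inside the element that BACH1 binds with small Maf proteins, which overlaps the first where GC follows it. The first window of each gene is printed 5′ to 3′, with any match to TGACNNNGC in capitals.
Blvra, chr2:127070407-127070656, plus strand: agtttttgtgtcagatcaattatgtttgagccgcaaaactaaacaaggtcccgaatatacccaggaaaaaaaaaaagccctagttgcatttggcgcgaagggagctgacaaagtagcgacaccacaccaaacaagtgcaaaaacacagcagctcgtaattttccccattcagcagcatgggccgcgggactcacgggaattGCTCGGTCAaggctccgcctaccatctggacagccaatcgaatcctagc
Blvrb, chr7:27447728-27447977, plus strand: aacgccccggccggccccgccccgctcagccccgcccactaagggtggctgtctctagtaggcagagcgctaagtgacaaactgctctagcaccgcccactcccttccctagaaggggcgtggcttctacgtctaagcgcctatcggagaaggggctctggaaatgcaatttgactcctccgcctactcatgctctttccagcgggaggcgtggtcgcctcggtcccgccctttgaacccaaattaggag
Hmox2, chr16:4741363-4741612, plus strand: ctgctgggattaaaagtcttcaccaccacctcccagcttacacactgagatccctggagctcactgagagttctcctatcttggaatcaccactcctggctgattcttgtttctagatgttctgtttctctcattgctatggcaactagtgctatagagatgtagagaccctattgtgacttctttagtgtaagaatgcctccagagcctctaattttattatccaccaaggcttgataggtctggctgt
The Blvra window held 1 match, on the opposite strand, which begins 49 bases before the start. The 5 windows of Blvrb and Hmox2 held 0 matches to it, and all 6 windows held 0 matches to TGACTCA. Of 32851 windows of this length in the table, 10.2% held TGACNNNGC and 4.46% held TGACTCA. A match of letters is not a binding site, and windows without one say nothing of elements elsewhere.

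Bach1 itself was read first, as a check of the labels. Its probe set (17326895) was at log2 levels of 7.59, 7.68 and 7.70 on the arrays labelled knockout and 7.46, 7.59 and 7.57 on the wild-type arrays. It thus read no lower under the knockout label, with a difference of 0.11 (95% interval -0.085 to 0.31). Where the probes lie relative to the altered part of the gene is not known here, so this reading checks nothing if they lie outside it, and directions follow the labels. Of the dopamine neuron genes that mark this region, the dopamine transporter Slc6a3 lay between 11.69 and 12.17 and tyrosine hydroxylase (Th) between 11.02 and 11.49 on the log2 scale, Ddc, the next enzyme of dopamine synthesis, between 8.16 and 8.70, and the transcription factor Pitx3 between 6.09 and 6.50. Array medians lay between 5.58 and 5.69, and the number of arrays limits the precision.

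Hmox1 was several-fold higher on the knockout-labelled arrays, while the probe sets of Hmox2, Blvra and Blvrb gave nearly the same levels in both groups. Limma called 1 of the 4 members, Hmox1, as higher, and 0 as lower. Over all probe sets 0.00726% were called higher, and 0% lower. Without overlap between the groups were 1 of the 4 members and 14.3% of all probe sets. At an unadjusted p under 0.05 (limma) there were again 1 of the 4 members, against 8.27% of all probe sets.

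**Figure D1:**
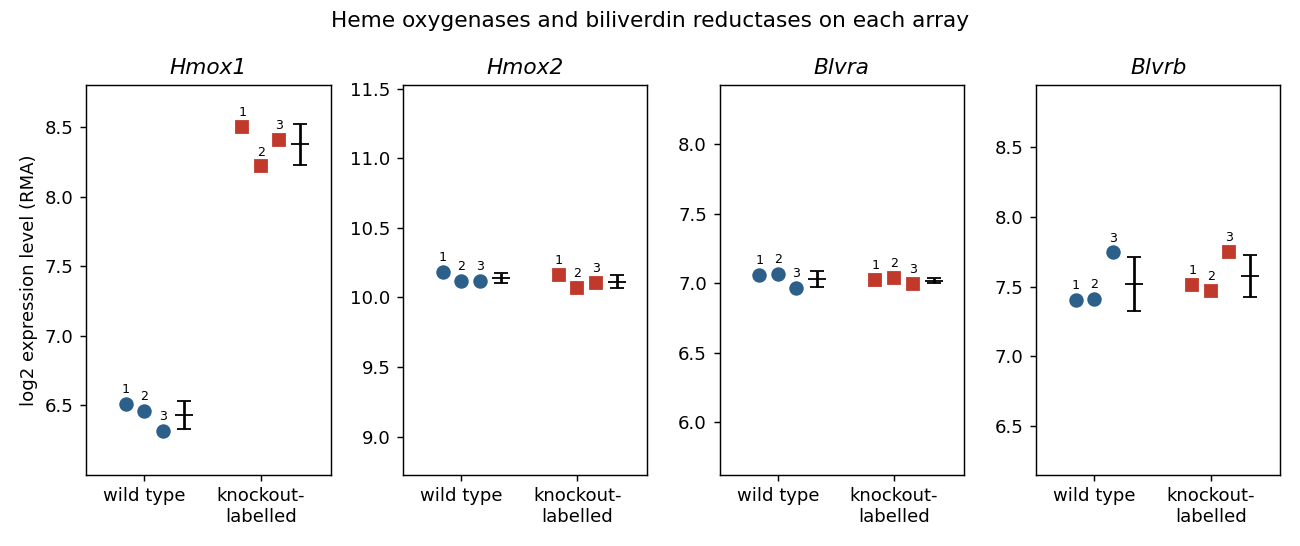
Log2 expression level (RMA) of each member on each array, with circles for wild-type and squares for knockout-labelled samples, numbered by replicate, and with the mean and SD (n = 3) beside them. Every panel spans the same number of log2 units, and the levels of different panels are not comparable. The knockout-labelled Hmox1 values, 8.22 to 8.50, lie above the wild-type values, 6.32 to 6.51, and the groups overlap in the other panels.

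The Hmox1 probe set (17502573) was at log2 levels of 8.50, 8.22 and 8.41 on knockout-labelled replicates 1, 2 and 3. On the wild-type arrays it was at 6.51, 6.46 and 6.32. The groups were far apart: the gap of 1.71 between the lowest knockout-labelled and the highest wild-type value was 5.97 times the wider of the 2 within-group ranges (0.29). The group means differed 3.85-fold with a 95% interval of 3.22 to 4.62, or 1.95 on the log2 scale (SE 0.11, interval 1.69 to 2.21), and the difference passed (limma, adjusted p = 0.0181 over all probe sets). By unadjusted p it ranked 3 among 41345 probe sets, and by size of change 4. The larger changes belonged to probe sets without a gene name. Probe sets 17549150 and 17549062 were also called higher, at log2 fold changes of 2.49 and 2.35 (limma, adjusted p = 0.0181 for both). Probe set 17202595 was larger in mean change only: its groups overlapped and it did not pass (limma, adjusted p = 0.543). The within-group SD of Hmox1, 0.12, lay above that of 34.4% of probe sets.

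The size of the Hmox1 change did not rest on any single array. With each of the 6 arrays left out in turn its log2 fold change ran from 1.88 to 2.03, and its rank by p from 1 to 4. The call did need all 6 arrays. Its adjusted p (limma) rose to 0.152, 0.134 and 0.189 on leaving out knockout-labelled replicate 1, 2 or 3. On leaving out wild-type replicate 1, 2 or 3 it rose to 0.191, 0.233 and 0.188. In each of those 6 fits 0 probe sets were called.

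Hmox2, the constitutive heme oxygenase (probe set 17322559), was at 10.16, 10.07 and 10.11 on the knockout-labelled arrays and at 10.18, 10.12 and 10.12 on the wild-type arrays. The difference was -0.03 on the log2 scale (SE 0.076; limma, adjusted p = 0.944), with a 95% interval of -0.21 to 0.16. In linear terms the interval runs from -13.5% to 11.5%. Hmox2 had a within-group SD of 0.042 that only 3.19% of probe sets undercut, and Blvra was nearly as steady (0.043, 3.33%). A failed test does not show equal levels, and with the SE of Hmox2 a log2 change of 1.10, or 2.15-fold, would have been needed to pass. The interval, not the p-value, therefore bounds its change.

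Blvra, the reductase of the main biliverdin isomer (probe set 17375767), was at 7.02, 7.03 and 6.996 on the knockout-labelled arrays and at 7.06, 7.06 and 6.96 on the wild-type arrays. All 3 knockout-labelled values lay inside the wild-type range. The difference was -0.01 on the log2 scale (SE 0.076; limma, adjusted p = 0.978), with a 95% interval of -0.20 to 0.17, which in linear terms is -12.7% to 12.7%. The sign turned to 0.02 after renewed quantile normalization.

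Blvrb, the flavin reductase (probe set 17475580), was at 7.52, 7.47 and 7.75 on the knockout-labelled arrays and at 7.41, 7.41 and 7.75 on the wild-type arrays. The array of replicate 3 was the high one in each group, by 0.26 over the mean of the others among knockout-labelled arrays and by 0.34 among wild-type arrays. Its within-group SD of 0.17 was the widest of the members and close to the middle of all probe sets (percentile 52.9). The difference was 0.06 on the log2 scale (SE 0.13; limma, adjusted p = 0.93), with a 95% interval of -0.27 to 0.38, so that a change of up to 1.3-fold in the higher direction lies within the interval. Without knockout-labelled replicate 3 the value was -0.03, and without wild-type replicate 3 it was 0.17 (limma, adjusted p = 0.966 and 0.786).

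**Figure D2:**
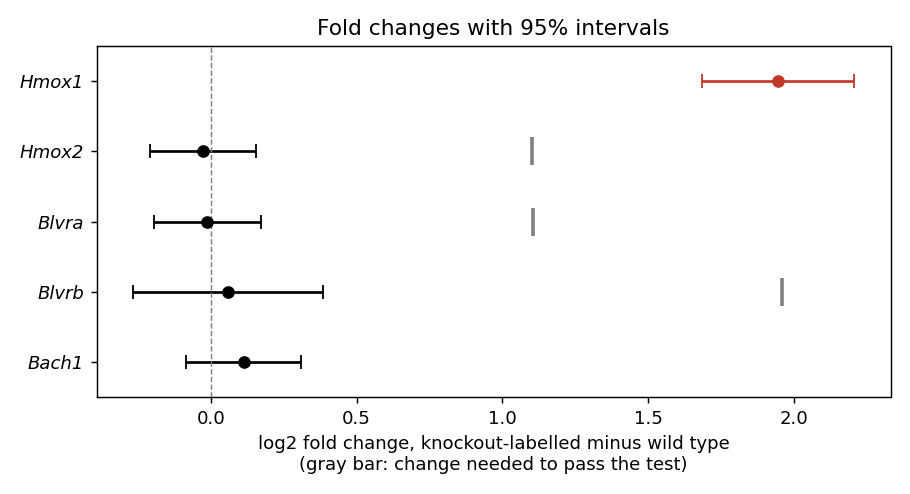
Log2 fold change of the members and of Bach1, knockout-labelled minus wild type, as points with 95% intervals from limma (n = 3 arrays per group). Gray bars mark the change that Hmox2, Blvra and Blvrb would have needed to pass the test, 1.10, 1.11 and 1.96. The Hmox1 interval, 1.69 to 2.21, lies clear of the others, which all include 0.

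The inducible and the constitutive heme oxygenase were then set against each other on the same arrays. For each array the log2 value of Hmox2 was subtracted from that of Hmox1, and the result was centred on its wild-type mean, so that only the change is read and not the levels. This relative value was 2.05, 1.86 and 2.01 on the knockout-labelled arrays and 0.04, 0.05 and -0.09 on the wild-type arrays. On average the change of Hmox1 exceeded that of Hmox2 by 1.97 on the log2 scale, a 3.92-fold ratio of the fold changes. In 3 of 3 knockout-labelled arrays the relative value lay above all wild-type values. An exact two-sided permutation test over arrays gave p = 0.1, which is the smallest that 3 against 3 arrays allow, and p = 0.2 after adjustment over 6 pairs. Limma on the same per-array difference, fitted for all probe sets, gave a 95% interval of 1.74 to 2.20 (adjusted p = 0.00607). In that fit every probe set carries the noise of Hmox2.

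Hmox1 stood in the same relation to the reductases. Its change exceeded that of Blvra by 1.96 and that of Blvrb by 1.89 (exact permutation p = 0.1 for each, 0.2 adjusted over 6 pairs), and both groups of arrays were apart. Among the other 3 enzymes no pair separated. The change of Hmox2 minus that of Blvra was -0.01, that of Hmox2 minus Blvrb -0.08 and that of Blvra minus Blvrb -0.07 (exact permutation p = 0.6, 0.5 and 0.6, each 0.6 adjusted over 6 pairs). For Blvra against Blvrb the interval from limma on the per-array difference was -0.52 to 0.38, so differences of that size are within reach of the data. Its sign turned to 0.03 without knockout-labelled replicate 3, and to 0.0034 and 0.0024 without wild-type replicates 1 and 2.

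**Figure D3:**
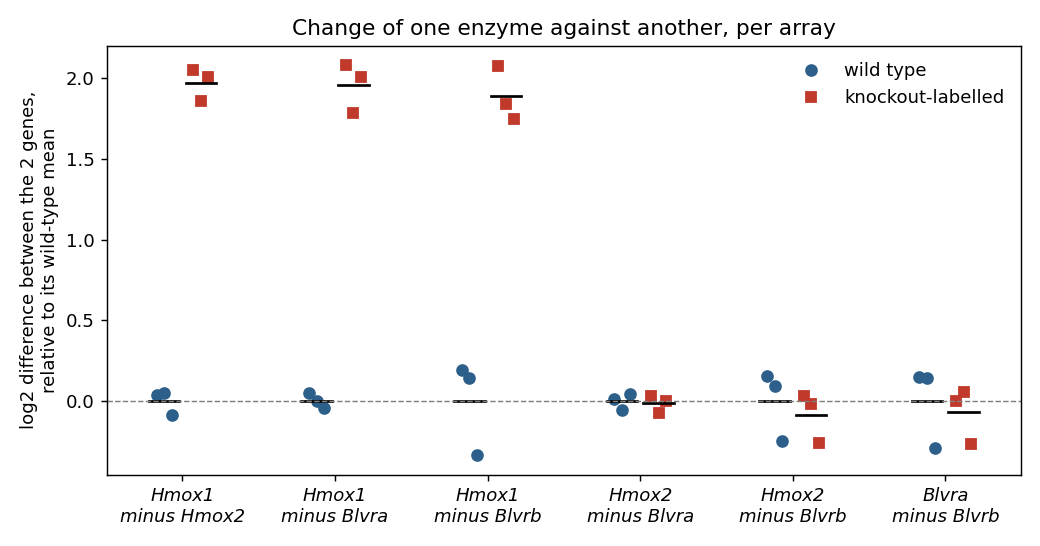
Log2 difference between the genes of each pair on each array, relative to the wild-type mean of that difference, with circles for wild-type and squares for knockout-labelled arrays and a black line at each group's mean (n = 3). The 3 pairs with Hmox1 have means of 1.97, 1.96 and 1.89 on the knockout-labelled arrays, and those of the other pairs lie between -0.08 and -0.01.

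The 59 other genes of heme handling and its control that were measured, of 67 listed, showed no change of a like size. Bach1 itself is among the 59. Fth1, Slc40a1, Slc48a1 and Me1 stand in more than 1 list and were counted once here. Limma called 0 of the 59 and 3 reached an unadjusted p under 0.05, where 6.51% of all genes did. Between groups 3 did not overlap in the higher and 5 in the lower direction, where 7.4% of all probe sets were separate in the higher and 6.86% in the lower direction. Their log2 fold changes ran from -0.33 to 0.36, with a median of -0.0083, against a median of -0.0098 over 22180 genes. The lower bound of the Hmox1 interval, 1.69, lay above the highest of these estimates.

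**Figure D4:**
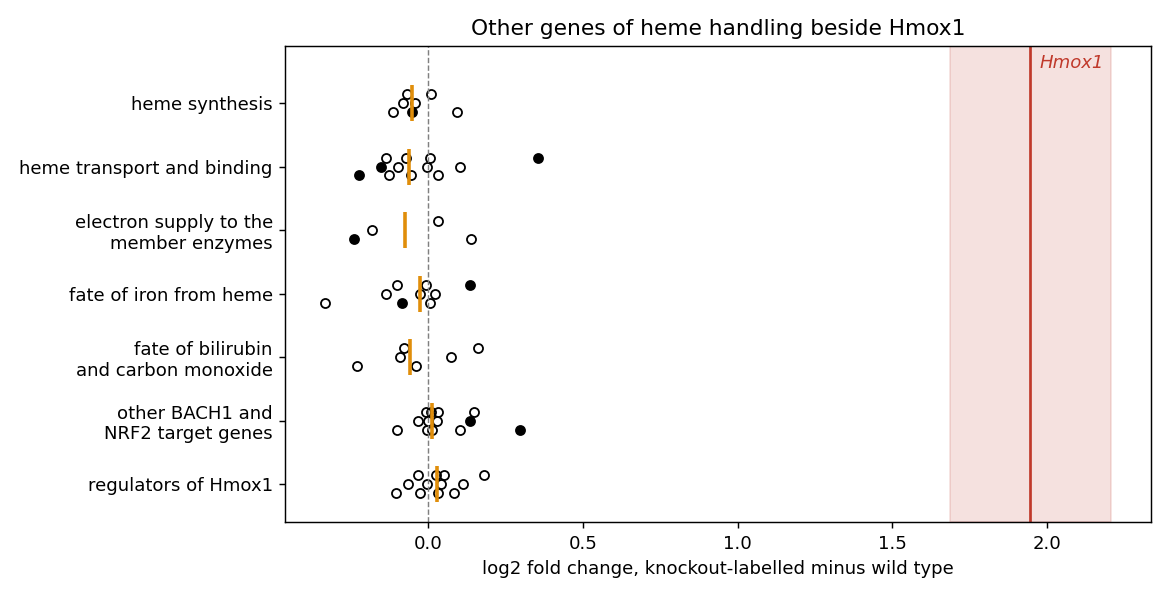
Log2 fold change (knockout-labelled minus wild type) of the other genes of heme handling, each circle a gene and each row a list, with filled circles where the groups do not overlap and an orange bar at the list's median. A gene that stands in more than 1 list, such as Fth1, is drawn in each of them. The red line and band are the Hmox1 estimate of 1.95 and its 95% interval, and the genes lie between -0.33 and 0.36.

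Upstream of the members, heme synthesis enzymes lay close to the wild-type level. The 7 enzymes measured had 2 higher and 5 lower means, 0 called and a median log2 fold change of -0.05. Alas1, the rate-limiting enzyme, was at 8.57, 8.62 and 8.60 against 8.64, 8.63 and 8.67, a small downward gap without overlap (log2 fold change -0.05, 95% interval -0.23 to 0.12; limma, adjusted p = 0.875). It was the 1 enzyme of the 7 without overlap, where 6.86% of all probe sets were separate in the lower direction. Uros, the synthase that closes the tetrapyrrole ring, had a log2 fold change of -0.11 and Cpox, the coproporphyrinogen oxidase, one of 0.09.

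Heme carriers and transporters were mixed, with 4 higher and 8 lower means among 12 and 0 called (median log2 fold change -0.06). Hpx, the plasma protein hemopexin that binds free heme, was at 5.39, 5.73 and 5.68 on the knockout-labelled arrays and 5.35, 5.12 and 5.26 on the wild-type arrays. Its groups did not overlap, though by a narrow margin, and its log2 fold change of 0.36 (95% interval 0.057 to 0.65) did not pass (limma, adjusted p = 0.566). Abcb10, a mitochondrial transporter tied to heme synthesis, was at 7.82, 7.61 and 7.89 against 7.90, 8.08 and 8.02 (log2 fold change -0.22, limma, adjusted p = 0.632). Abcb10, by a gap of only 0.003, and Flvcr2 were the 2 without overlap in the lower direction. Flvcr2 was at 6.25, 6.25 and 6.26 against 6.45, 6.39 and 6.37. Over all probe sets 6.86% were separate in the lower and 7.4% in the higher direction. The log2 fold change of Flvcr2, -0.15, did not pass (limma, adjusted p = 0.634). The heme importer Slc48a1 had a log2 fold change of -0.0055 and the heme exporter Flvcr1 one of 0.0045.

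Genes that supply NADPH or electrons to the enzymes were measured in 4 of 6 cases, with 0 called and a median log2 fold change of -0.08. Pgd, an enzyme of the pentose phosphate pathway that makes NADPH, was at 9.69, 9.62 and 9.69 on the knockout-labelled arrays and 9.92, 9.79 and 9.996 on the wild-type arrays. All knockout-labelled values were the lower ones, as for 6.86% of all probe sets. The log2 fold change of -0.24 (95% interval -0.45 to -0.029) did not pass (limma, adjusted p = 0.572). Cyb5r3, a cytochrome b5 reductase, had one of -0.18. Por, the reductase that feeds heme oxygenase with electrons, and G6pdx had no probe set of their own and were not analysed here.

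Downstream, genes that take up the products of heme cleavage did not pass either. Of 10 genes for the iron released, 9 were measured (all but Ftl1), with 3 higher and 6 lower means, 0 called and a median of -0.03. That median ran from -0.07 to 0.00072 with an array left out and was 0.01 after renewed quantile normalization, so it has no settled sign. The summed linear level, in which Fth1 weighs most, did not overlap, at 12946 to 14035 for knockout-labelled against 12464 to 12688 for wild-type samples. The mean log2 values, with genes weighted alike, did overlap. Relative to the wild-type mean these were -0.07, -0.11 and 0.0069 on the knockout-labelled arrays and -0.06, 0.09 and -0.03 on the wild-type arrays. Fth1, the ferritin heavy chain that stores iron, was at 13.57, 13.44 and 13.52 against 13.38, 13.38 and 13.37. Its groups did not overlap, at a log2 fold change of 0.13 that did not pass (limma, adjusted p = 0.682). In the lower direction 1 gene did not overlap, Ncoa4, at 8.44, 8.43 and 8.43 against 8.53, 8.52 and 8.51. Over all probe sets 7.4% were separate in the higher and 6.86% in the lower direction. The log2 fold change of Ncoa4, -0.08, did not pass either (limma, adjusted p = 0.773). The iron exporter Slc40a1 was at 6.48, 6.69 and 6.87 against 6.82, 6.77 and 6.75, and these values overlapped. Cp, the ferroxidase ceruloplasmin, had the lowest estimate of the 59 genes of heme handling, -0.33, with a wide 95% interval of -0.96 to 0.29. Of 7 genes for bilirubin and carbon monoxide 6 were measured, with 2 higher and 4 lower means and 0 called. The transporters Slco1a4 and Abcc2 had log2 fold changes of -0.23 and 0.16.

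Among other genes known as BACH1 or NRF2 targets, 13 of 16 were measured, with 8 higher and 5 lower means, 0 called and a median of 0.01. Ftl1, the ferritin light chain, G6pdx and Prdx1 had no probe set of their own, so the median does not cover them. Without overlap were 2 in the higher direction, Gclm and Fth1, and 0 in the lower, against 7.4% and 6.86% of all probe sets. The summed linear level, in which Fth1 weighs most, was 22980 to 25239 for knockout-labelled against 22492 to 22836 for wild-type samples. With each gene weighted alike, the mean log2 values overlapped. Relative to the wild-type mean they were 0.06, -0.0086 and 0.09 on the knockout-labelled arrays and -0.04, 0.02 and 0.03 on the wild-type arrays. Gclm, the modifier subunit for glutathione synthesis, was at 10.27, 10.04 and 10.11 on the knockout-labelled arrays and 9.88, 9.83 and 9.84 on the wild-type arrays. Its groups did not overlap, and its 1.23-fold difference did not pass (log2 fold change 0.30, limma, adjusted p = 0.538). Nqo1, the quinone reductase, was at 6.38, 6.28 and 6.78 against 6.39, 6.56 and 6.46, which overlapped. Of 13 regulators of Hmox1 12 were measured, with 7 higher and 5 lower means, 0 called and 0 without overlap. Bach1 itself is in this list and is counted among the higher means. Maff, a small Maf partner of BACH1 and NRF2, differed by 0.18 on the log2 scale, and its 95% interval of -0.18 to 0.54 included 0.

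The genes beside the members on their chromosomes were read to see whether the Hmox1 difference extended to them (RefSeq gene order, GRCm38.p6). On chromosome 8 the nearest measured genes are Tom1, an endosomal sorting gene, and Mcm5, a replication helicase subunit. Their probe sets, 17463441 and 17502583, were taken by gene name. The number of the Tom1 probe set is not near that of Hmox1 (17502573), and where its probes lie was not checked. Tom1 was at 10.82 ± 0.095 against 10.86 ± 0.044 and Mcm5 at 6.64 ± 0.26 against 6.53 ± 0.17 (SD, n = 3 for each), with log2 fold changes of -0.04 and 0.11 that did not pass (limma, adjusted p = 0.929 and 0.886). Hmox2 lies on chromosome 16, as Bach1 does, between Nmral1 and Cdip1, whose log2 fold changes were 0.07 and -0.12. Beside Blvra, Ap4e1 and Ncaph had -0.04 and -0.13, and beside Blvrb, Sptbn4 and Sertad3 had -0.12 and 0.06. None of these 8 neighbours passed (limma), and 1 of them, Sptbn4, did not overlap between the groups, with the lower values on the knockout-labelled arrays. Over all probe sets 14.3% did not overlap. Beside Bach1 itself the nearest measured genes were Map3k7cl and Grik1. Map3k7cl was at 5.75 ± 0.050 against 6.34 ± 0.14 (SD, n = 3 for each) without overlap, a difference of -0.58 on the log2 scale (95% interval -0.82 to -0.35), and it missed the threshold (limma, adjusted p = 0.512, unadjusted p = 0.000886). Grik1 differed by -0.04.

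The probe sets with the profile nearest to that of Hmox1 over the 6 arrays were picked by distance, so their likeness is a description. Likeness was the Euclidean distance between profiles, each centred on its wild-type mean, in log2 units. The 5 nearest probe sets were 17549062, 17201371, 17200393, 17549150 and 17203119, at distances of 0.74, 0.83, 0.93, 0.99 and 1.06, where a flat profile would lie at 3.38. Of these, 17549062 and 17549150 passed, and the others did not (limma, adjusted p = 0.487 to 0.512). None has a gene name in the annotation used here. Of these 5, 3 were dim, with means in the lowest 40% of probe sets.

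The cell composition of the samples bears on bulk values, since fewer cells of a type and less RNA per cell cannot be told apart in them. Microglia and perivascular macrophages are cells in which Hmox1 is readily induced. Among 7 measured microglia markers, knockout-labelled means were higher for 5 and lower for 2, 0 were called, and the summed linear level was 2645 to 2957 there and 2690 to 2841 on the wild-type arrays. Cx3cr1, the fractalkine receptor of microglia, was the 1 marker of these without overlap, at a log2 fold change of 0.16 (limma, adjusted p = 0.641). Over all probe sets 7.4% did not overlap in the higher direction. The 2 lower microglia markers were P2ry12 at -0.13 and Csf1r at -0.05, and the median of the 7 was 0.03. The 5 perivascular macrophage markers summed to 297 to 363 and 278 to 369. Both ranges overlapped. Among the marker lists, endothelial and mural cell markers were the ones whose sums did not overlap: in 6 of 6 the knockout-labelled mean was the lower one, with 0 called and a median of -0.08 (log2). The sums were 1602 to 1762 and 1808 to 1948. Dopamine neuron markers had 5 of 6 higher means, 0 called and a larger median of 0.16, with sums of 7829 to 10213 and 7401 to 8689 that overlapped. Meningeal and choroid plexus markers went both ways, from -0.73 for the transporter Slc6a13 to 0.91 for transthyretin (Ttr), with 0 of 6 called and overlapping sums. The part of these lists in the Hmox1 result was not tested. Of 6 erythroid markers 1 had a probe set of its own, Slc4a1, with a log2 fold change of -0.04.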

How the data were processed

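The table the authors deposited holds a log2 level for each probe set on each array, made with RMA per the submitters' processing notes, and the log2 scale was read from the values. The version of RMA is not given in the sources used here. RMA equalises arrays, which would remove a change common to most genes, and compresses differences of dim probe sets. Gene names came from the platform annotation, updated by Entrez identifier to a RefSeq table (GRCm38.p6), which matched 23328 of 23521 probe sets with 1 gene. A further 1814 name several genes and 16010 none.

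All 41345 probe sets were fitted with limma 3.58.1 in R 4.3.3 (lmFit and eBayes, 3 against 3 arrays, no covariates), with Benjamini-Hochberg adjustment over all of them and a threshold of 0.05. The fit was tested on simulated data. A gene stood for its probe set with the highest mean. Pairs of members were compared with exact permutation tests. Alternatives were the replicate number as a block, each array left out, renewed quantile normalization, equal array medians, no dim probe sets (mean level under 5.07, the 40th percentile), trended robust variances and array weights.

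Named genes were the members, Bach1, called probe sets, the 2 smallest p per list with preset index genes, the 5 profiles nearest to Hmox1, and the members' neighbours. Members and lists were chosen with earlier results of these data known. Probe set 17202595, Ncoa4, Flvcr2, the marker genes named and the genes beside Bach1 were chosen after seeing their values.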

Additional observations from a re-analysis of the deposited data

How the results depend on the processing

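Over 12 alternatives the Hmox1 change lay between 1.88 and 2.03 on the log2 scale. It passed in 5 of them and not in the other 7, the replicate block and the 6 fits that leave out an array. The replicate numbers did not pair the samples, with correlations of deviations between same-numbered arrays of 0.086, -0.033 and 0.039. With the replicate block the Hmox1 value was 1.95 (limma, adjusted p = 0.544) and 0 probe sets were called higher, against 3 without it; the block leaves fewer residual degrees of freedom. With an array left out, the Hmox1 value ran from 1.88 to 2.03 and the count of probe sets called higher was 0 each time, with fewer samples in the fit. The count called lower was 0 in all 12. Hmox2 was below 0 in all 12, from -0.07 to -0.0045. The Blvra value turned to 0.0232 after quantile normalization, to 0.0039 without wild-type replicate 1 and to 0.0056 without wild-type replicate 2, and ran from -0.0447 to 0.0056 with an array left out. Blvrb turned to -0.0278 without knockout-labelled replicate 3 and ran from there to 0.17. The change of Hmox1 minus that of Hmox2 was 1.93 to 2.03 with an array left out, and limma on the per-array difference gave 1.97 (adjusted p = 0.00607, and 0.464 with the replicate block). The change of Blvra minus that of Blvrb ran from -0.22 to 0.0274 with an array left out. For these sign changes the cause was not tested. Of the medians of the 7 lists of heme handling genes, 3 turned sign: iron to as high as 0.00072 with an array left out and to 0.0143 after quantile normalization, bilirubin and carbon monoxide to as high as 0.0035 and regulators of Hmox1 to as low as -0.0085 with an array left out.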
